A study of Mus musculus with 15 samples.

Results

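Solute carrier (Slc) genes encode membrane proteins that move sugars, amino acids, metals, ions and other small solutes across the plasma membrane and the membranes of organelles. The members described here were the genes of the deposited table whose symbol starts with Slc and a digit and that had at least 10 normalized reads in at least 3 of 15 libraries. This limit kept 196 of the 381 Slc genes of the table, 291 of which had any read, and it kept 12673 of the 24520 genes of any name that had a read. It uses the level only, so the levels are given as a description. Of the 196 members, 170 reached the limit in libraries of all 5 groups, and only Slc1a3 reached it in libraries of a single group. By their names, 5 members are not transporters themselves but regulators, neighbours or relatives of one (Slc9a3r1, Slc9a3r2, Slc4a1ap, Slc7a6os and Slc2a4rg-ps).

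RNA-seq was performed on cultured lines of mouse fetal liver cells transformed by a retrovirus that carries the MLL-ENL fusion oncogene and kept in interleukin-3. The WTFL cells carried floxed, intact alleles of Cebpa and Cebpb, which encode the myeloid transcription factors C/EBPα and C/EBPβ. In the dKO cells both genes were deleted with a cell-permeable Cre protein, and these cells carried a GFP control vector, whereas WTFL cells carried none. The dKO-LAP* cells were dKO cells that expressed GFP and LAP*, the longest form of C/EBPβ, from a rat construct. There were 3 libraries each of WTFL, dKO and dKO-LAP* cells of clone C1, and of WTFL and dKO cells of clone C2. Each clone came from a different mouse, and the dKO lines were rare escapees that grew out after repeated Cre treatment, with partially deleted clones pooled before the last round. All libraries of a group came from 1 line sampled at different times, so the p-values measure the spread between such samples. The dKO-LAP* results rest on clone C1 alone.

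Slc transporters are passive carriers, exchangers or pumps driven by ion gradients, and they do not hydrolyse ATP themselves. Proliferating myeloid cells import glucose through the GLUT carriers of the Slc2 family and release lactate through the monocarboxylate transporters of the Slc16 family. They take up amino acids through heterodimers of Slc3a2 with light chains of the Slc7 family, and phagocytes use members such as Slc11a1 to withdraw metals from engulfed microbes.

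The libraries held 9212237 to 13613500 reads on genes, and values are normalized reads, the read count of a gene divided by 1 size factor per library. Cebpa and Cebpb were listed at 0 in every dKO library, and Cebpb was listed at 2537.5 to 4216 in dKO-LAP* cells. Cebpe, which encodes the related factor C/EBPε, was higher after the deletion. Its means were 408 (WTFL), 2107 (dKO) and 1809 (dKO-LAP*) for clone C1 and 505 (WTFL) and 2166 (dKO) for clone C2. The paper proposes that C/EBPε makes up in part for the deleted factors. The dKO cells therefore still expressed a C/EBP gene, and its part in the results below was not tested. All 9 myeloid markers were present in every group, no lymphoid marker of 5 passed 3 reads in any library, and of 6 hepatocyte markers only Afp did. The sums of marker lists moved with the comparisons. For clone C1 the myeloid sum ran from 80610 to 85899 (WTFL), 152032 to 176495 (dKO) and 143463 to 171890 (dKO-LAP*). For clone C2 it ran from 84899 to 85490 (WTFL) and 114753 to 134853 (dKO). Mpo, a granule enzyme, had means of 14175 (WTFL) and 69702 (dKO) for clone C1 and 2798 and 22686 for clone C2. Elane had 37651 and 64114, then 40972 and 71472. Not every myeloid marker rose. Spi1 (3524 and 3426), Ptprc (5090 and 4066) and Ctsg (12483 and 11811) had lower dKO means for clone C1. Ctsg (24679 and 9356) and Csf2rb (4754 and 4048) had lower dKO means for clone C2. Afp went from 27.1 to 36.1 down to 7.06 to 10.5 in clone C1 and from 106 to 165 down to 72.9 to 83.7 in clone C2. Of 7 erythroid markers 6 were in the table and 3 passed 3 reads in any library, and their sum went from 6.12 to 9.36 up to 22.9 to 38.5 in clone C1 and overlapped in clone C2 (11.9 to 23.8 and 13.6 to 24.7). The summed level of 7 macrophage markers ran from 6538 to 8620 in WTFL cells of clone C1 and from 2734 to 3596 in its dKO cells, and from 953 to 1577 and from 1425 to 2266 in clone C2. Eosinophil markers (4 of 5 present) summed to at most 1.34 in WTFL cells of clone C1, to 7714 to 14682 in its dKO cells and to 628 to 1596 in dKO-LAP* cells, and they went from at most 12.8 to at least 212 in clone C2. Mast cell and basophil markers (5 of 6 present, Fcer1a at most at the floor) went from 104 to 144 up to 2893 to 3301 in clone C1 and from 180 to 192 up to 975 to 1379 in clone C2. The 6 markers of late neutrophils summed to 12571 to 17018 in WTFL and to 50495 to 67664 in dKO cells of clone C1, and their ranges overlapped in clone C2 (30766 to 53470 and 33842 to 53185). The part of these shifts in the results below was not tested. In bulk RNA, fewer cells of a type and less RNA per cell cannot be told apart.

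The first question was which transporter genes differed between cells without C/EBPα and C/EBPβ and the WTFL cells they came from. On the scale log2(normalized reads + 1), groups were compared in limma, and a gene with a Benjamini-Hochberg adjusted p under 0.05 over all 12673 genes was called. In clone C1, 40 members were higher and 58 were lower in dKO than in WTFL cells, together 50% of the members, where 17.1% and 19.9% of all tested genes, together 37.0%, were called higher and lower. In clone C2, 37 members were higher and 52 lower, together 45.4%, beside 17.4% and 20.1% of all tested genes, together 37.6%. The groups did not overlap for 109 members in clone C1 and 114 in clone C2 (55.6% and 58.2%, beside 45.2% and 51.5% of all tested genes). The median log2 fold change of the members was -0.10 in each clone, beside -0.01 and -0.03 over all tested genes in clones C1 and C2. Reads on the members made up 1.05% to 1.09% of the reads on genes in WTFL cells of clone C1 and 0.979% to 1.01% in its dKO cells. In clone C2 they made up 1.18% to 1.21% in WTFL and 1.10% to 1.12% in dKO cells. These ranges did not overlap within either clone.

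The clones shared 15 members called higher and 25 called lower. The shared risers were 37.5% of the members called higher in clone C1 and 40.5% of those in clone C2, and the shared fallers were 43.1% and 48.1% of the respective lists. Over all tested genes the shared risers were 33.2% and 32.6% of the lists of the clones and the shared fallers 42.1% and 41.6%. Of all tested genes, 5.69% were called higher and 8.36% lower in both clones. In 13 of the shared risers and 23 of the shared fallers the groups also did not overlap in either clone, beside 5.44% and 7.89% of all tested genes. Another 9 members were called in opposite directions, beside 4.10% of all tested genes, and 58 members (29.6%, beside 43.6% of all tested genes) were called in neither clone. The effects of the deletion differed between the clones for 69 members (35.2%, beside 29.4% of all tested genes) when the difference itself was tested. In the plot of both fold changes, the organic cation transporter Slc22a3 and the amino acid transporter Slc7a2 stood farthest along the shared directions.

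**Figure D1:**
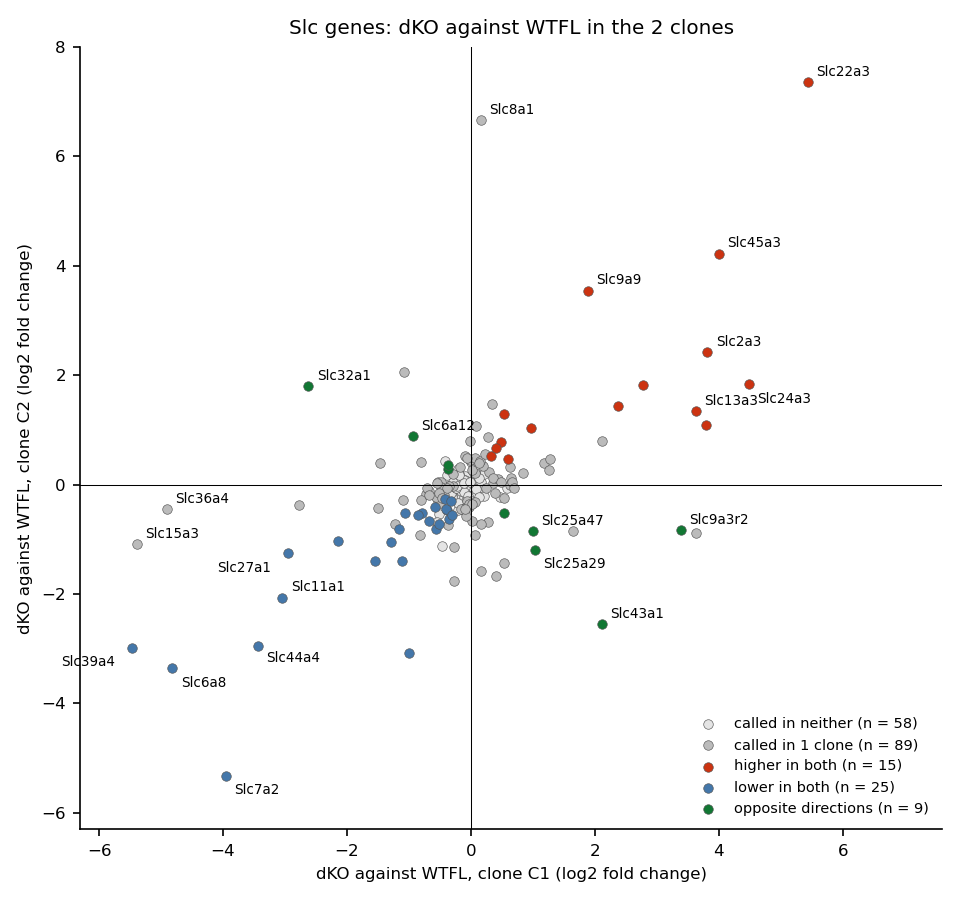
Each point is 1 of 196 Slc genes, placed by its log2 fold change between dKO and WTFL cells in clone C1 (x axis) and clone C2 (y axis). The colours mark 15 genes called higher in both clones, 25 lower in both, 9 in opposite directions, 89 in 1 clone and 58 in neither, and Slc8a1 stands apart near the vertical line, with 0.16 in clone C1 and a rise of at least 50.2-fold in clone C2. Where a group is at the floor, as for Slc8a1, Slc22a3 and Slc7a2, the place of the point depends on the pseudocount of 1.

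The members were then grouped by the kind of solute that their family carries. Of all tested genes, 17.1% were called higher and 19.9% lower in clone C1 and 17.4% and 20.1% in clone C2, and several of the groups below lie near these shares. Of 29 amino acid transporters, 3 rose and 12 fell in clone C1, and 6 rose and 11 fell in clone C2. Of 8 organic ion transporters, 4 rose and none fell in clone C1, and 3 rose and 1 fell in clone C2. Among 23 transporters of metals and haem, 5 rose and 8 fell in clone C1, and 6 rose and 7 fell in clone C2. Of the 39 mitochondrial carriers of the Slc25 family, 8 were higher and 8 lower in clone C1, and 5 were higher and 10 lower in clone C2. Of 22 inorganic ion transporters 5 rose and 6 fell in clone C1, and 5 rose and 5 fell in clone C2. Of 21 members of the nucleotide sugar families 3 rose and 5 fell in clone C1, and 3 rose and 2 fell in clone C2. Sugar transporters (14 genes) had 4 risers and 2 fallers in clone C1 and 3 and 6 in clone C2. The plot by solute shows that each group of 5 or more genes held genes on both sides of 0, except the 6 vesicular and lysosomal genes in clone C1, which all lay below it, and that the largest changes were spread over several groups.

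**Figure D2:**
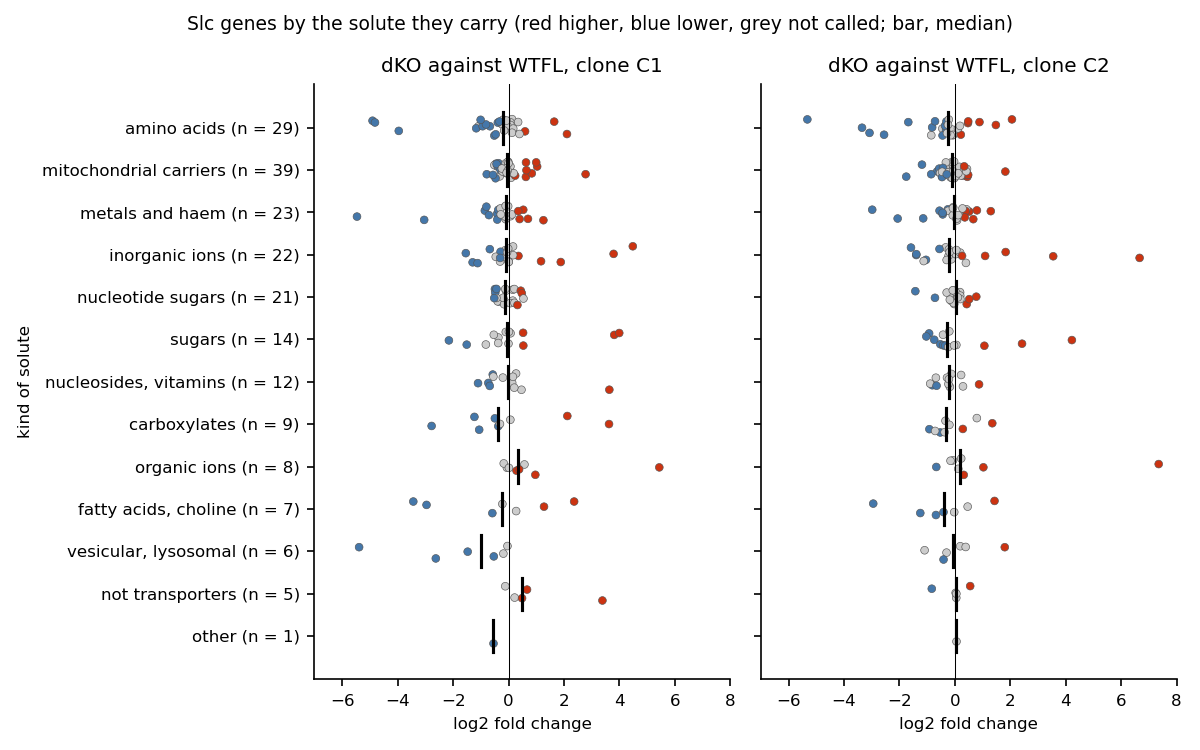
Log2 fold changes between dKO and WTFL cells (x axis) of 196 Slc genes in clone C1 (left) and clone C2 (right), by the solute of their family (y axis). Red points were called higher, blue points lower and grey points were not called, and black bars are the group medians, which lie between -0.41 and 0.49 for groups of 5 or more genes except for the 6 vesicular and lysosomal genes in clone C1, where the median is lower.

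The glucose carriers differed in direction. Slc2a3 encodes GLUT3, a high-affinity glucose transporter, and lies on chromosome 6 from 122727809 to 122801640 (mm10). It had 48.2, 61.3 and 28.5 normalized reads in the WTFL libraries of clone C1 and 592, 645 and 656 in its dKO libraries. In clone C2 the WTFL libraries had 98.6, 136 and 192 and the dKO libraries 974, 462 and 901. No dKO library reached down to a WTFL library in either clone, and the rise was 13.7-fold in the means in clone C1 and 5.47-fold in clone C2. On the log2 scale it was 3.81 (SE 0.30, limma adjusted p = 7.1e-08) in clone C1 and 2.42 (SE 0.30, limma adjusted p = 1.1e-05) in clone C2.

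Slc2a1, on chromosome 4 from 119108711 to 119137983, encodes GLUT1, the main glucose carrier of many dividing cells, and it was lower on average in dKO cells of both clones. Its levels were 1986, 1342 and 659 in WTFL against 673, 739 and 644 in dKO libraries of clone C1, and WTFL replicate 3 fell inside the range of the dKO libraries. The difference of -0.82 (SE 0.35, limma adjusted p = 0.083) was not called there, and it was called without WTFL replicate 3 (limma adjusted p = 0.0053), with the replicate block (0.041) and in edgeR on recovered reads (0.047). In clone C2 the levels were 1734, 2964 and 3084 in WTFL against 1333, 984 and 1745 in dKO libraries, and again 1 library of each group overlapped. The fall was -0.93 (SE 0.35, limma adjusted p = 0.049) and was lost, at adjusted p = 0.053 to 0.18, without any 1 of 10 libraries (WTFL replicates 2 and 3 and dKO replicates 1 and 2 of clone C2, WTFL replicate 2, all dKO replicates and dKO-LAP* replicates 2 and 3 of clone C1). It was also lost under 3 of 8 alternative settings (adjusted p = 0.058 to 0.066). Reads on Slc2a1 and a predicted gene that overlaps 105 bases of it cannot be separated here.

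Another member of the Slc2 family differed by clone. Slc2a9, which carries urate, had 354 ± 51.2 (SD, n = 3) normalized reads in WTFL against 511 ± 28.7 in dKO cells of clone C1, and 98.1 ± 10.5 and 69.5 ± 21.4 in clone C2. It was called higher in clone C1 (0.53, SE 0.17, limma adjusted p = 0.022) and lower in clone C2 (-0.53, SE 0.17, limma adjusted p = 0.023), and the difference between these effects was -1.06 (SE 0.24, limma adjusted p = 0.0035). The first call was lost without WTFL replicate 1 or 2 or dKO replicate 1 or 2 of clone C1 (limma adjusted p = 0.054 to 0.087), and the second without WTFL replicate 2 or dKO replicate 2 or 3 of clone C2 (limma adjusted p = 0.097 to 0.11) and under 2 of 8 alternative settings (0.087 and 0.12). Slc37a2, a sugar phosphate exchanger of the endoplasmic reticulum that is abundant in macrophages, fell in both clones, from 102 ± 3.83 to 22.5 ± 4.64 in clone C1 and from 56.2 ± 6.16 to 27.6 ± 7.28 in clone C2 (limma adjusted p = 2.9e-06 and 0.0026).

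Slc45a3, on chromosome 1 from 131962967 to 131982969, belongs to a family of putative sugar transporters and was not detected in WTFL cells of clone C1. It was listed at 0 in those 3 libraries and had 23.8, 10.5 and 13.2 normalized reads in the dKO libraries. Clone C2 had 1.99, 6.29 and 4.58 in WTFL against 103, 70.0 and 106 in dKO libraries. Taking 3 reads in a library as the floor, the rise in clone C1 was at least 3.95-fold (limma adjusted p = 7.8e-06), and in clone C2 it was 21.7-fold higher (log2 fold change 4.22, SE 0.48, limma adjusted p = 5.3e-06). A predicted gene on the same strand overlaps 481 bases of Slc45a3, so its reads are uncertain.

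**Figure D3:**
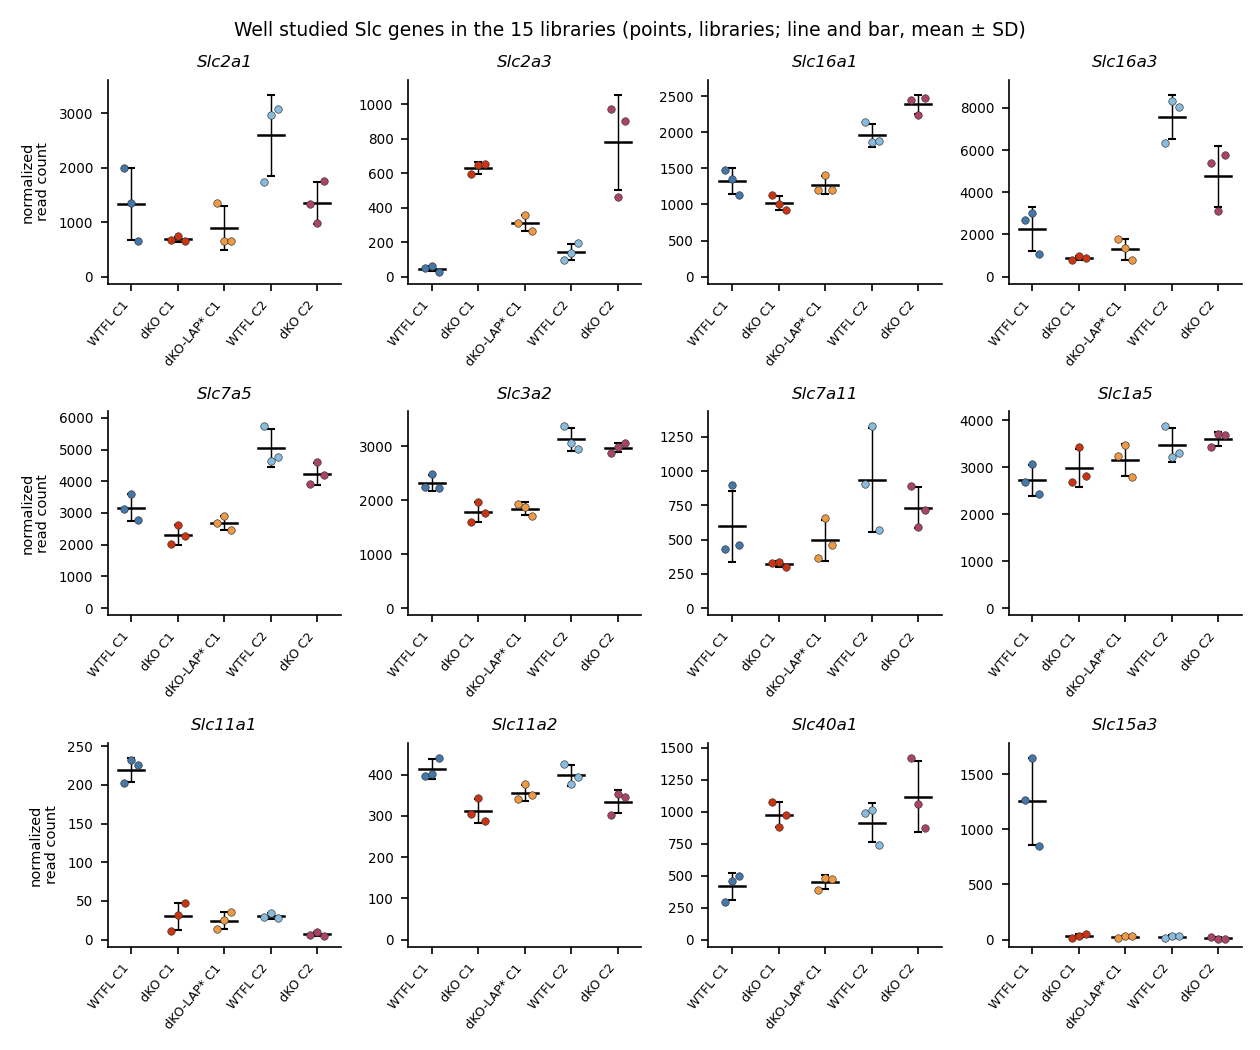
Normalized reads (y axis) of 12 well studied Slc genes in the 3 libraries of each of 5 groups (x axis), with points for libraries and lines and bars for means ± SD. The dKO points lie above the WTFL points of the same clone for Slc2a3 and below them for Slc11a1, and Slc15a3 was high only in WTFL cells of clone C1.

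Lactate carriers were measured next. Slc16a3, on chromosome 11 from 120948480 to 120960868, encodes MCT4, which exports lactate from glycolytic cells. It had 2664, 3009 and 1088 normalized reads in WTFL against 764, 982 and 899 in dKO libraries of clone C1, a log2 fold change of -1.23 (SE 0.34, limma adjusted p = 0.01). These ranges were separate, but WTFL replicate 3 was close to the dKO libraries, and the call was lost without WTFL replicate 1 or 2 (limma adjusted p = 0.052 and 0.055). In clone C2 Slc16a3 had 6354, 8306 and 8055 in WTFL against 5398, 3108 and 5745 in dKO libraries, which did not overlap, and the change of -0.71 (SE 0.34, limma adjusted p = 0.12) was not called. Without WTFL replicate 3 of clone C1 it was (limma adjusted p = 0.037).

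Slc16a1, on chromosome 3 from 104638668 to 104658462, encodes MCT1, which moves lactate and pyruvate in both directions. Its levels were 1479.8, 1356 and 1127 in WTFL against 1126, 1009 and 924 in dKO libraries of clone C1 and 2148, 1865 and 1878 in WTFL against 2454, 2238 and 2482 in dKO libraries in clone C2. The groups did not overlap in either clone, and the change was small and of opposite sign, with -0.37 (SE 0.11, limma adjusted p = 0.012) in clone C1 and 0.29 (SE 0.11, limma adjusted p = 0.044) in clone C2. The difference between the clones was 0.65 (SE 0.15, limma adjusted p = 0.0036). The first call was lost when WTFL replicate 1 or dKO replicate 3 of clone C1 was left out (limma adjusted p = 0.070 and 0.063), and the second without any 1 of 6 libraries (WTFL replicates 2 and 3 and dKO replicates 1 and 3 of clone C2, dKO replicate 2 and dKO-LAP* replicate 3 of clone C1, adjusted p = 0.050 to 0.14, limma). The first was also lost under 1 of 8 alternative settings (adjusted p = 0.062) and the second under 2 (0.052 and 0.070).

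Slc16a10, a transporter of aromatic amino acids, fell in both clones. It had 1317 ± 158 normalized reads in WTFL against 630.1 ± 41.7 in dKO cells of clone C1, and 1011 ± 151 and 695 ± 46.4 in clone C2. The log2 fold changes were -1.06 (SE 0.11, limma adjusted p = 2.3e-06) and -0.53 (SE 0.11, limma adjusted p = 0.0016). Slc16a7 (MCT2) fell 6.95-fold in clone C1, from 143 ± 8.89 to 20.5 ± 5.90 (limma adjusted p = 2.6e-06), and had 22.6 ± 8.72 and 16.5 ± 3.07 in clone C2, where it was not called (limma adjusted p = 0.36). The difference between those effects was 2.40 (SE 0.42, limma adjusted p = 0.00051).

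Slc13a3, on chromosome 2 from 165405028 to 165473230, encodes a sodium-coupled carrier of succinate and other dicarboxylates. It rose from 6.69, 1.80 and 6.11 normalized reads in WTFL to 55.5, 70.3 and 70.6 in dKO libraries of clone C1, 3.63 (SE 0.43, limma adjusted p = 7e-06) on the log2 scale. In clone C2 the WTFL libraries, at 0, 1.05 and 1.83, were at the floor and the dKO libraries had 2.09, 4.86 and 4.29, so that the rise was at least 1.19-fold (limma adjusted p = 0.022). The call in clone C2 rests on a few reads, and it was lost without WTFL replicate 1 or dKO replicate 2 or 3 of that clone (limma adjusted p = 0.070 to 0.11) and under 5 of 8 alternative settings (adjusted p = 0.052 to 0.11), edgeR and DESeq2 on recovered reads among them (0.073 and 0.11).

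The amino acid transporters held several shared falls. Slc7a2, on chromosome 8 from 40862396 to 40922308, encodes CAT2, an arginine and lysine carrier that feeds arginase and nitric oxide synthase in macrophages. It had 163, 179 and 220.1 normalized reads in WTFL against 13.6, 7.34 and 13.2 in dKO libraries of clone C1. Clone C2 had 90.6, 94.4 and 90.7 in WTFL libraries, and the dKO libraries, at 1.05, 1.94 and 1.07, were at the floor. It was 16.4-fold lower in dKO cells of clone C1 (log2 fold change -3.96, SE 0.24, limma adjusted p = 4.7e-09), and in clone C2 the fall was at least 28.6-fold (limma adjusted p = 1.9e-10). A predicted antisense gene overlaps 635 bases of Slc7a2, and the strand setting of the counting is not given in the sources used here.

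Slc6a8, on chromosome X from 73673150 to 73682502, encodes the creatine transporter. It had 26.8, 21.6 and 34.6 normalized reads in WTFL libraries of clone C1 and was listed at 0 in all 3 dKO and all 3 dKO-LAP* libraries, at least 8.15-fold lower in dKO cells (limma adjusted p = 1.3e-08). In clone C2 it fell from 80.7, 137 and 102 in WTFL to 8.37, 6.80 and 13.9 in dKO libraries, a log2 fold change of -3.35 (SE 0.32, limma adjusted p = 9.2e-07). The groups were far apart in both clones.

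Slc7a7, a light chain that exports basic amino acids and is best known from macrophages and the gut, also fell in both clones. It went from 111, 125 and 112 normalized reads in WTFL to 49.8, 57.7 and 65.3 in dKO libraries of clone C1 and from 45.8, 36.7 and 54.0 to 4.18, 4.86 and 4.29 in clone C2. The log2 fold changes were -1.01 (SE 0.19, limma adjusted p = 0.0005) and -3.08 (SE 0.19, limma adjusted p = 4.8e-09), and the difference between the clones was -2.07 (SE 0.26, limma adjusted p = 3e-05). The taurine transporter Slc6a6 fell by a small step in both clones, with changes of -0.33 (SE 0.08, limma adjusted p = 0.0041) and -0.31 (SE 0.08, limma adjusted p = 0.0062), at a level of at least 2012 in all 15 libraries. Slc38a6, of the family of neutral amino acid carriers, fell by 1.17 and 0.82 on the log2 scale (limma adjusted p = 2.9e-05 and 0.00077).

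The abundant carriers of essential amino acids moved less. Slc7a5, on chromosome 8 from 121881150 to 121907694, encodes LAT1, which imports leucine as a heterodimer with the heavy chain Slc3a2, on chromosome 19 from 8706882 to 8723369. Slc7a5 had 3136, 3606 and 2765 normalized reads in WTFL against 2017, 2629.6 and 2260.2 in dKO libraries of clone C1 (log2 fold change -0.46, SE 0.12, limma adjusted p = 0.0056), and 5742, 4651 and 4760.2 in WTFL against 3905, 4609 and 4200.4 in dKO libraries in clone C2 (-0.25, SE 0.12, limma adjusted p = 0.11). Slc3a2 had 2247, 2483 and 2231 in WTFL against 1600.2, 1971 and 1769.5 in dKO libraries in clone C1 (-0.39, SE 0.08, limma adjusted p = 0.0016) and 3379, 3057 and 2955 in WTFL against 2884, 2983 and 3056 in dKO libraries in clone C2 (-0.07, SE 0.08, limma adjusted p = 0.52). Both were called lower in clone C1, where the groups did not overlap, and neither in clone C2. The arginine carrier Slc7a1 showed the same calls, with -0.51 (SE 0.11, limma adjusted p = 0.0017) in clone C1 and -0.15 (SE 0.11, limma adjusted p = 0.29) in clone C2. None of these genes passed the test of a difference between the clones (limma adjusted p = 0.38, 0.054 and 0.098 for Slc7a5, Slc3a2 and Slc7a1), although Slc3a2 did when WTFL replicate 3 or dKO replicate 2 of clone C1 was left out or WTFL replicate 1 of clone C2 (limma adjusted p = 0.049, 0.019 and 0.033) and Slc7a1 when WTFL replicate 3 or dKO replicate 2 of clone C1 was left out (limma adjusted p = 0.039 and 0.035).

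Slc1a5, on chromosome 7 from 16781340 to 16798274, encodes ASCT2, a glutamine and neutral amino acid exchanger. Its levels were 2675, 3070.2 and 2418 in WTFL against 2685, 3435 and 2813 in dKO libraries of clone C1 and 3872, 3221 and 3307 in WTFL against 3426, 3702 and 3678 in dKO libraries in clone C2, and the groups overlapped in each clone. The log2 fold changes of 0.13 (SE 0.11, limma adjusted p = 0.4) and 0.06 (SE 0.11, limma adjusted p = 0.71) were not called. Its relative Slc1a4, which carries alanine, serine and cysteine, was called higher in both clones, from 92.0 ± 18.8 to 138 ± 4.80 in clone C1 and from 186 ± 37.5 to 256 ± 27.4 in clone C2 (limma adjusted p = 0.016 and 0.050). The second of these calls was at the threshold and was lost without any 1 of 9 libraries (limma adjusted p = 0.056 to 0.24), namely WTFL replicate 1 and all dKO replicates and dKO-LAP* replicate 1 of clone C1 and WTFL replicates 1 and 2 and dKO replicates 1 and 3 of clone C2, and the first without WTFL replicate 3 of clone C1 (limma adjusted p = 0.073). Of 8 alternative settings, 3 ended the second call (adjusted p = 0.054 to 0.076) and 1 the first (0.051).

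Slc7a11, on chromosome 3 from 49892526 to 50443614, encodes xCT, which imports cystine in exchange for glutamate. It had 434, 896 and 462 normalized reads in WTFL against 327, 339.8 and 297 in dKO libraries of clone C1, where the groups did not overlap, and 903, 1329 and 572 in WTFL against 892, 594 and 715 in dKO libraries in clone C2, where they did. The fall of -0.81 (SE 0.30, limma adjusted p = 0.044) in clone C1 was called and that of -0.29 (SE 0.30, limma adjusted p = 0.48) in clone C2 was not. The call was lost without any 1 of 7 libraries (WTFL replicate 2, all dKO replicates and dKO-LAP* replicate 3 of clone C1, WTFL replicate 1 and dKO replicate 3 of clone C2, adjusted p = 0.053 to 0.22, limma). It was lost as well under 4 of 8 alternative settings (adjusted p = 0.051 to 0.065). WTFL replicate 2 of each clone held the highest level.

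A pair of light chains rose in clone C2 only by the calls. Slc7a8, or LAT2, went from 173 ± 33.1 to 479.6 ± 41.9 normalized reads there (1.48, SE 0.17, limma adjusted p = 6.2e-06) and had 155 ± 30.2 and 197 ± 38.2 in clone C1 (0.35, SE 0.17, limma adjusted p = 0.13). Without WTFL replicate 2 of clone C1, Slc7a8 was called in that clone too (limma adjusted p = 0.039). Slc7a6, or y+LAT2, rose by 0.48 (SE 0.10, limma adjusted p = 0.00099) in clone C2 and had -0.07 (SE 0.10, limma adjusted p = 0.61) in clone C1. The effects differed between the clones for both, by 1.13 (SE 0.24, limma adjusted p = 0.0022) for Slc7a8 and 0.55 (SE 0.14, limma adjusted p = 0.0062) for Slc7a6.

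A metal transporter of phagocytes fell in both clones. Slc11a1, on chromosome 1 from 74375195 to 74386062, encodes NRAMP1, which removes iron and manganese from the phagosome. It had 202, 232 and 225 normalized reads in WTFL against 11.3, 31.5 and 46.8 in dKO libraries of clone C1, and 28.9, 34.6 and 27.5 in WTFL against 6.28, 9.72 and 4.29 in dKO libraries in clone C2. No ranges overlapped within a clone, and the WTFL cells of clone C2 started from about the level that the dKO cells of clone C1 ended at. The log2 fold changes were -3.04 (SE 0.43, limma adjusted p = 3.7e-05) and -2.07 (SE 0.43, limma adjusted p = 0.0012). All 7 macrophage markers had lower means in dKO than in WTFL cells of clone C1, among them Csf1r with 921 against 3237 normalized reads. In clone C2 the means of Adgre1 (293 in WTFL and 1421 in dKO cells) and Csf1r (45.9 and 60.8) were higher in dKO cells, those of Cd14 (406 and 92.9), Cd68 (596 and 397), Mrc1 (11.9 and 1.07) and Msr1 (3.40 and 0) were lower, and Marco was listed at 0. Their part in the fall of Slc11a1 was not tested.

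Slc39a4, on chromosome 15 from 76612383 to 76617384, encodes ZIP4, a zinc importer. It had 781, 809 and 810.1 normalized reads in WTFL against 12.5, 25.2 and 15.9 in dKO libraries of clone C1, a 44.9-fold fall (log2 fold change -5.47, SE 0.31, limma adjusted p = 2.3e-09). In clone C2 it was low in WTFL libraries, at 8.96, 14.7 and 11.9, and at the floor in dKO libraries, at 0, 0.97 and 1.07, at least 3.68-fold lower (limma adjusted p = 2.1e-06).

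Other genes of iron transport were called in clone C1. Slc11a2, on chromosome 15 from 100387898 to 100425072, encodes DMT1, which imports iron into the cytosol. Its levels were 397, 402 and 441 in WTFL against 304, 344 and 287 in dKO libraries of clone C1 and 426, 376 and 393 in WTFL against 302, 354 and 345 in dKO libraries in clone C2. The groups did not overlap in either clone, with changes of -0.41 (SE 0.10, limma adjusted p = 0.0033) and -0.26 (SE 0.10, limma adjusted p = 0.047). The call in clone C2 was lost without any 1 of 11 libraries (limma adjusted p = 0.050 to 0.18), namely all except dKO replicates 2 and 3 and WTFL replicate 3 of clone C1 and dKO replicate 2 of clone C2, and under 6 of 8 alternative settings (adjusted p = 0.059 to 0.11). A predicted gene shares 402 bases with Slc11a2.

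Slc40a1, on chromosome 1 from 45908068 to 45926523, encodes ferroportin, the iron exporter. It rose from 296, 459 and 493 normalized reads in WTFL to 1075, 880.0 and 975 in dKO libraries of clone C1, 1.26 (SE 0.19, limma adjusted p = 9.4e-05) on the log2 scale. In clone C2 the WTFL libraries, at 989.9, 1013 and 740.2, overlapped the dKO libraries, at 1422, 1059 and 872, and the change of 0.27 (SE 0.19, limma adjusted p = 0.29) was not called. The effects differed between the clones by -0.99 (SE 0.28, limma adjusted p = 0.013). Slc48a1, which exports haem from lysosomes, had 3362 ± 157 and 3132 ± 191 in WTFL and dKO cells of clone C1, and it fell from 3080.5 ± 238 to 2260.0 ± 38.8 in clone C2 (-0.44, SE 0.07, limma adjusted p = 0.00017).

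Among the zinc and copper transporters, Slc39a10 (ZIP10) rose in both clones, from 239 ± 45.1 to 342 ± 22.9 in clone C1 and from 331 ± 36.0 to 812 ± 74.5 in clone C2, with log2 fold changes of 0.53 (SE 0.14, limma adjusted p = 0.0063) and 1.29 (SE 0.14, limma adjusted p = 2.6e-06). The copper importer Slc31a1 (CTR1) fell in both, from 1385 ± 148 to 765 ± 66.2 and from 1307 ± 24.6 to 891 ± 79.9 (limma adjusted p = 1.7e-06 and 0.00014). Slc31a2, a neighbour 62315 bases away on the same strand that encodes a CTR1-like protein, fell in clone C1 (-0.80, SE 0.17, limma adjusted p = 0.0015) and was not called in clone C2 (0.41, SE 0.17, limma adjusted p = 0.066), though it was called higher there without dKO-LAP* replicate 2 of clone C1 (limma adjusted p = 0.038) or with quantile normalization (0.030). Slc30a7, a zinc carrier of the Golgi, rose in clone C2 by 0.79 (SE 0.09, limma adjusted p = 5e-06) and had a change of -0.01 (SE 0.09, limma adjusted p = 0.93) in clone C1.

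Inorganic ion transporters held several genes that came from near 0. Slc24a3, on chromosome 2 from 145167754 to 145642166, encodes NCKX3, a sodium, calcium and potassium exchanger. It had 0, 0.90 and 0 normalized reads in WTFL libraries of clone C1, which is at the floor, and 32.8, 16.8 and 34.4 in dKO libraries, at least 6.98-fold higher (limma adjusted p = 1.2e-07). In clone C2 it rose from 14.9, 26.2 and 19.2 in WTFL to 93.1, 50.5 and 80.5 in dKO libraries, 1.83 (SE 0.36, limma adjusted p = 0.00092) on the log2 scale. The groups did not overlap in either clone.

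Slc9a9, on chromosome 9 from 94669909 to 95230445, encodes NHE9, a sodium and proton exchanger of endosomes. It rose from 58.9, 42.4 and 37.7 in WTFL to 164, 164 and 185 in dKO libraries of clone C1 and from 14.9, 10.5 and 16.5 to 169, 159 and 186 in clone C2. The dKO cells of both clones reached the same level, 171 ± 12.4 and 171 ± 13.2, from different starts. The log2 fold changes were 1.89 (SE 0.21, limma adjusted p = 3.1e-06) and 3.55 (SE 0.21, limma adjusted p = 3.3e-09).

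The cation-chloride cotransporters split by member. Slc12a5 (KCC2), known as the chloride extruder of neurons, rose from 12.0, 9.02 and 16.3 in WTFL to 166, 176 and 201 in dKO libraries of clone C1 (3.79, SE 0.25, limma adjusted p = 1.1e-08) and from 24.9, 45.1 and 42.1 to 103, 69.0 and 67.6 in clone C2 (1.09, SE 0.25, limma adjusted p = 0.0027). The broadly expressed Slc12a4 (KCC1) and Slc12a7 (KCC4) fell in both clones. Slc12a7 went from 166 ± 11.7 to 56.9 ± 9.20 in clone C1 and from 256 ± 38.8 to 96.8 ± 14.7 in clone C2 (limma adjusted p = 4.7e-06 and 1.5e-05), and Slc12a4 went from 122 ± 40.9 to 48.1 ± 9.76 and from 348 ± 61.6 to 167 ± 10.9 (limma adjusted p = 0.00023 and 0.0014).

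Slc8a1, on chromosome 17 from 81373105 to 81738377, encodes the sodium and calcium exchanger NCX1 and was called in clone C2 and not in clone C1. It was at the floor in the WTFL libraries of clone C2, at 1.00, 0 and 0.92, and had 154, 171 and 149 in its dKO libraries, at least 50.2-fold higher (limma adjusted p = 6.4e-11). In clone C1 the WTFL and dKO libraries overlapped, at 74.9, 51.4 and 81.5 against 56.6, 87.1 and 90.0, and no change was called (0.16, SE 0.28, limma adjusted p = 0.69). The difference between the clones was called (limma adjusted p = 1.7e-08), and its size has no exact value because the WTFL libraries of clone C2 were at the floor.

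Organic cation transporters included a gene that was called higher in both clones. Slc22a3, on chromosome 17 from 12418960 to 12507704, encodes OCT3, which carries histamine, serotonin and other organic cations and is known from basophils and mast cells. It was listed at 0 in the 3 WTFL libraries of clone C1 and had 37.4, 51.4 and 39.7 normalized reads in its dKO libraries. Clone C2 had 2.99, 7.34 and 7.33 in WTFL against 1090.1, 907 and 1218 in dKO libraries. It was thus at least 10.7-fold higher in dKO cells of clone C1 (limma adjusted p = 2e-09) and 182-fold higher in those of clone C2 (log2 fold change 7.35, SE 0.30, limma adjusted p = 6.2e-11). Of the mast cell and basophil markers, Gata2 went from a mean of 9.77 to 260.2 normalized reads in clone C1 and from 67.5 to 549 in clone C2, Cpa3 from 0 to 1455 and from 0.99 to 568, Hdc from 34.5 to 1269 and from 11.7 to 61.0, and Ms4a2 from 34.5 to 71.2 and from 61.8 to 8.10. Their part in the rise of Slc22a3 was not tested. Slc22a3 shares 420 bases with Plg on the other strand.

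Slc22a15, an orphan member of the same family, rose by nearly the same step in both clones, from 262 ± 17.1 to 514 ± 28.8 in clone C1 and from 205 ± 9.99 to 421 ± 59.9 in clone C2, with log2 fold changes of 0.97 (SE 0.10, limma adjusted p = 2.5e-06) and 1.03 (SE 0.10, limma adjusted p = 1.6e-06). The groups did not overlap in either clone.

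Of 7 transporters of lipids and choline, 2 rose and 3 fell in clone C1, and 1 rose and 4 fell in clone C2. Of all tested genes, 17.1% were called higher and 19.9% lower in clone C1 and 17.4% and 20.1% in clone C2. Slc27a1 (FATP1), which takes up long-chain fatty acids, had 266, 361 and 254 normalized reads in WTFL against 37.4, 42.0 and 30.9 in dKO libraries of clone C1, and 160.3, 185 and 213 in WTFL against 100.4, 55.4 and 82.6 in dKO libraries in clone C2, and lies on chromosome 8 from 71568882 to 71587302. The falls of -2.96 (SE 0.22, limma adjusted p = 4.1e-08) and -1.25 (SE 0.22, limma adjusted p = 0.00031) differed between the clones by 1.71 (SE 0.31, limma adjusted p = 0.00061). Slc44a4, on chromosome 17 from 34914466 to 34930436, belongs to the choline transporter-like family and transports thiamine pyrophosphate. It went from 132, 187 and 105 to 9.06, 15.7 and 11.5 in clone C1 and from 34.9, 38.8 and 23.8 to 5.23, 1.94 and 3.22 in clone C2, with log2 fold changes of -3.43 (SE 0.38, limma adjusted p = 3.1e-06) and -2.95 (SE 0.38, limma adjusted p = 1.7e-05).

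The groups of both genes did not overlap in either clone. The more abundant Slc44a2 also fell in both, from 2240.3 ± 273 to 1490.1 ± 103 and from 1622 ± 23.2 to 1221 ± 59.2 (limma adjusted p = 5.2e-05 and 0.0012). Slc27a2 was the 1 lipid gene called higher in both clones, at levels of at most 15.4 ± 9.53 in the dKO means, and it lost its call in clone C2 without any 1 of 6 libraries (dKO replicate 2 and dKO-LAP* replicates 2 and 3 of clone C1, WTFL replicate 2 and dKO replicates 1 and 3 of clone C2, adjusted p = 0.051 to 0.20, limma) and under 5 of 8 alternative settings (adjusted p = 0.059 to 0.086).

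Among nucleoside and vitamin transporters, Slc29a1 (ENT1, on chromosome 17 from 45585200 to 45599606), through which nucleosides and nucleoside drugs enter cells, fell in clone C1 from 1085, 1022 and 1165 normalized reads in WTFL to 602, 764 and 616 in dKO libraries (-0.73, SE 0.11, limma adjusted p = 6.3e-05). Clone C2 had 872, 846 and 857 in WTFL against 685, 811 and 779.8 in dKO libraries, which did not overlap, and the change of -0.18 (SE 0.11, limma adjusted p = 0.2) was not called. The effects differed by 0.55 (SE 0.15, limma adjusted p = 0.013). Slc28a2, a concentrative purine nucleoside carrier, rose from 4.01, 3.61 and 1.02 to 32.8, 62.9 and 40.6 in clone C1 (3.64, SE 0.39, limma adjusted p = 2.6e-06) and had 24.9, 37.8 and 28.4 in WTFL against 25.1, 17.5 and 8.58 in dKO libraries in clone C2 (-0.89, SE 0.39, limma adjusted p = 0.089). Slc28a2 was called lower in clone C2 without WTFL replicate 3 of clone C1 or dKO replicate 1 of clone C2 (limma adjusted p = 0.045 and 0.035).

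The vitamin C carrier Slc23a2 fell in both clones, by 0.57 and 0.82 on the log2 scale (limma adjusted p = 0.0046 and 0.00027). The proton-coupled folate carrier Slc46a1 was called lower in both, from 58.8 ± 1.30 to 36.9 ± 7.30 and from 77.0 ± 16.5 to 47.6 ± 3.36 (limma adjusted p = 0.019 and 0.021). Slc46a1 lost its first call without dKO replicate 1 of clone C1 (limma adjusted p = 0.088) and its second without WTFL replicate 1 or 2 or dKO replicate 1 of clone C2 (limma adjusted p = 0.093, 0.073 and 0.066) or with quantile normalization (0.13). The riboflavin transporter Slc52a2 had a change of -1.10 (SE 0.11, limma adjusted p = 1.7e-06) in clone C1 and was called lower. In clone C2 its change of -0.28 (SE 0.11, limma adjusted p = 0.062) was not called, and it was when WTFL replicate 3 or dKO replicate 1 of clone C1 or dKO replicate 2 of clone C2 was left out (limma adjusted p = 0.035, 0.049 and 0.048) or when only the groups compared were fitted (0.024). The thiamine transporter Slc19a2 rose in clone C2 by 0.87 (SE 0.13, limma adjusted p = 8.7e-05) and had 0.27 (SE 0.13, limma adjusted p = 0.12) in clone C1.

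Slc15a3, on chromosome 19 from 10839727 to 10859362, encodes PHT2, a histidine and peptide transporter of lysosomes in immune cells. It had 1263, 1645 and 851 normalized reads in WTFL libraries of clone C1 and 15.9, 28.3 and 47.7 in its dKO libraries, a 40.9-fold fall (log2 fold change -5.39, SE 0.50, limma adjusted p = 4.7e-07). In clone C2 the levels were low in both genotypes, at 9.96, 28.3 and 35.7 in WTFL against 19.9, 5.83 and 7.51 in dKO libraries, which overlapped, and the change of -1.09 (SE 0.50, limma adjusted p = 0.097) was not called. It was called when WTFL replicate 1 or dKO replicate 1 of clone C2 was left out (limma adjusted p = 0.018 and 0.024). The effects differed by 4.30 (SE 0.70, limma adjusted p = 0.00027). The macrophage marker sum was also highest in WTFL cells of clone C1, and its part in the fall of Slc15a3 was not tested. Tmem132a shares 1541 bases with Slc15a3 on the other strand, so its reads are uncertain.

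**Figure D4:**
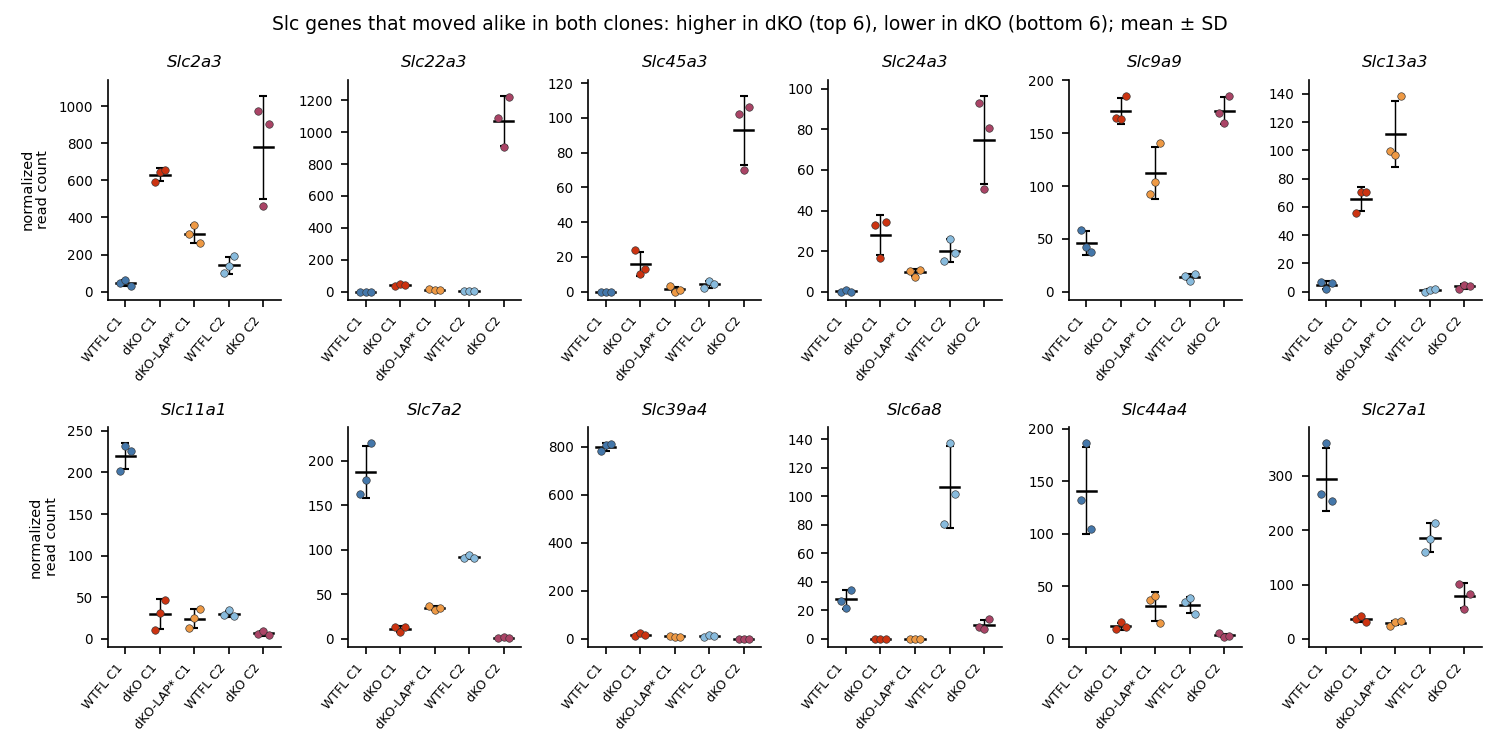
Normalized reads (y axis, linear) in the 3 libraries of each of 5 groups (x axis) for the 6 Slc genes that rose most and the 6 that fell most on average among those called alike in both clones without overlap of the groups. Points are libraries and lines and bars are means ± SD, and the dKO-LAP* points of Slc2a3, Slc22a3, Slc45a3, Slc24a3 and Slc9a9 lie between or at the WTFL and dKO points of clone C1, whereas those of Slc13a3 lie above all its dKO points.

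The most abundant member was a mitochondrial carrier. Per kilobase of exon, Slc25a5, the ADP and ATP exchanger ANT2, had 5549 normalized reads as the mean of the 5 groups, followed by Slc48a1 at 1099, Slc7a5 at 941, the phosphate carrier Slc25a3 at 879.5 and Slc1a5 at 763. Slc25a5 stood clear of the others, whereas Slc7a5 and Slc25a3 changed places between groups, with 621 and 804 per kilobase in dKO cells of clone C1 and 1362 and 825 in WTFL cells of clone C2. Slc25a5, on chromosome X from 36795651 to 36798807, was not called in either clone, with 8839, 8334 and 9397 in WTFL against 8561, 9053 and 8384 in dKO libraries of clone C1 and 9301, 8508 and 9845 in WTFL against 8969, 9683 and 9651 in dKO libraries in clone C2. The log2 fold changes were -0.03 (SE 0.08, limma adjusted p = 0.79) and 0.04 (SE 0.08, limma adjusted p = 0.75).

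Slc25a3 had 4264, 4027 and 4469 in WTFL against 4509.7, 4561 and 4309 in dKO libraries of clone C1, which overlapped (0.07, SE 0.07, limma adjusted p = 0.47), and rose from 5020.1, 4212 and 4507 to 6126, 6668 and 6310.2 in clone C2 (0.48, SE 0.07, limma adjusted p = 6.2e-05). Slc25a37 (mitoferrin 1, on chromosome 14 from 69241848 to 69285112), which brings iron to haem synthesis, went from 1964, 2185 and 2518 to 1887, 1849 and 1694 in clone C1 (-0.29, SE 0.10, limma adjusted p = 0.026) and had -0.03 (SE 0.10, limma adjusted p = 0.84) in clone C2. Its call was lost when WTFL replicate 3 or dKO replicate 3 of clone C1 was left out (limma adjusted p = 0.11 and 0.10) and under 2 of 8 alternative settings (0.17 and 0.074). The calcium-regulated ATP carrier Slc25a23 rose in both clones from low levels, from 5.32 ± 4.10 to 37.0 ± 4.61 and from 26.3 ± 8.51 to 92.2 ± 9.64 (limma adjusted p = 1.7e-05 and 0.0009). The carnitine and acylcarnitine carrier Slc25a20 fell in both, by 0.79 and 0.52 on the log2 scale (limma adjusted p = 0.00039 and 0.009), and lost the call in clone C2 without its dKO replicate 3 (limma adjusted p = 0.053).

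The second question was where the clones parted. Of 9 members called in opposite directions, 5 rose in clone C1 and fell in clone C2 (2.12% of all tested genes did) and 4 did the reverse (1.98% of all tested genes). Slc43a1 (LAT3, on chromosome 2 from 84838850 to 84863594), a facilitator for branched-chain amino acids, had 2.68, 5.41 and 5.09 normalized reads in WTFL against 29.4, 29.4 and 11.5 in dKO libraries of clone C1, and 28.9, 26.2 and 31.1 in WTFL against 5.23, 3.89 and 3.22 in dKO libraries in clone C2. The changes of 2.11 (SE 0.35, limma adjusted p = 0.00019) and -2.56 (SE 0.35, limma adjusted p = 3.4e-05) were of opposite sign between groups that did not overlap, and they differed by -4.66 (SE 0.50, limma adjusted p = 5.5e-06).

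Slc32a1, on chromosome 2 from 158610767 to 158615748, encodes the vesicular transporter of the inhibitory transmitters GABA and glycine. It fell from 313, 427 and 265 to 49.8, 56.6 and 51.2 in clone C1 (-2.62, SE 0.27, limma adjusted p = 1.8e-06) and rose from 10.9, 22.0 and 8.25 to 51.3, 45.7 and 42.9 in clone C2 (1.80, SE 0.27, limma adjusted p = 8.8e-05). The dKO libraries of the clones ended in overlapping ranges. A predicted antisense gene shares 697 bases with Slc32a1, and Slc37a2, Slc29a1 and Slc25a37 share 241, 275 and 473 bases with other genes, so the reads of these genes are uncertain.

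Slc6a12, on chromosome 6 from 121343076 to 121365775, which carries betaine and GABA, fell from 316, 462 and 406 to 207, 207 and 197 in clone C1 (-0.93, SE 0.20, limma adjusted p = 0.0018) and rose from 4.98, 7.34 and 6.41 to 9.42, 16.5 and 11.8 in clone C2 (0.89, SE 0.20, limma adjusted p = 0.0026). Its level differed between the clones more than between genotypes. Slc9a3r2, on chromosome 17 from 24639286 to 24650327, encodes a scaffold protein that binds sodium and proton exchangers and is no transporter. It had 5.35, 11.7 and 13.2 in WTFL against 109.8, 119.6 and 98.0 in dKO libraries of clone C1 and 97.6, 130.0 and 122 in WTFL against 55.5, 64.2 and 75.1 in dKO libraries in clone C2, with changes of 3.39 (SE 0.25, limma adjusted p = 4.6e-08) and -0.83 (SE 0.25, limma adjusted p = 0.017). The call in clone C2 was lost without WTFL replicate 2 or 3 or dKO replicate 1 of that clone (limma adjusted p = 0.065, 0.052 and 0.064).

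Slc25a29, a carrier of basic amino acids on chromosome 12 from 108825873 to 108835883, and Slc25a47, a carrier known from the liver on chromosome 12 from 108836046 to 108856815, lie head to head with 162 bases between them, and both rose in clone C1 and fell in clone C2. Slc25a29 had 22.8, 29.8 and 17.3 in WTFL against 38.5, 56.6 and 49.4 in dKO libraries of clone C1 and 94.6, 104 and 59.5 in WTFL against 33.5, 48.6 and 29.0 in dKO libraries in clone C2 (1.03, SE 0.27, limma adjusted p = 0.0063, and -1.19, SE 0.27, limma adjusted p = 0.0023). Slc25a47 had 16.1, 26.2 and 17.3 in WTFL against 38.5, 44.0 and 37.1 in dKO libraries, then 49.8, 61.9 and 31.1 in WTFL against 25.1, 27.2 and 22.5 in dKO libraries (1.00, SE 0.28, limma adjusted p = 0.0097, and -0.86, SE 0.28, limma adjusted p = 0.023). The groups of both genes were separate in each clone, although Slc25a47 lost its call in clone C2 without WTFL replicate 1 or 2 or dKO replicate 3 (limma adjusted p = 0.068, 0.12 and 0.074) and under 3 of 8 alternative settings (0.050 to 0.086). The pair was 1 of 14 pairs of members that lay within 100 kb of each other.

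Slc36a4, on chromosome 9 from 15709738 to 15743361, a lysosomal amino acid transporter for tryptophan and proline, fell in clone C1. It had 165, 210.2 and 158 normalized reads in WTFL against 4.53, 4.20 and 6.18 in dKO libraries of clone C1, a 35.7-fold fall (log2 fold change -4.91, SE 0.24, limma adjusted p = 5.2e-10). In clone C2 it had 1459, 1366 and 1289.9 in WTFL against 1125, 937 and 948 in dKO libraries, which did not overlap, and the change of -0.45 (SE 0.24, limma adjusted p = 0.16) was not called. It was called lower there without dKO-LAP* replicate 1 of clone C1 (limma adjusted p = 0.026), when only the groups compared were fitted (0.0083), and by edgeR and DESeq2 on the read counts recovered from the values (adjusted p = 0.019 and 0.0054). The difference between the clones was 4.45 (SE 0.35, limma adjusted p = 2.3e-07).

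Slc7a4, of the cationic amino acid transporter family, was at the floor in all 9 libraries of clone C1 and fell from 80.7, 115 and 123 to 32.4, 31.1 and 32.2 in clone C2 (-1.68, SE 0.42, limma adjusted p = 0.0046), a call that a pseudocount of 0.1 ended (adjusted p = 0.14). Slc1a3, the glutamate carrier that passed the level limit in a single group, had 9.96, 4.19 and 2.75 in WTFL against 23.0, 20.4 and 29.0 in dKO libraries of clone C2 and at most 5.35 in clone C1. Because its dKO libraries of clone C2 brought it past the limit, its change there is given as values only. Its fit passes the threshold, so it is 1 of the 37 risers of clone C2, of the 6 among amino acid transporters there and of the 69 differences between clones, which are 36, 5 and 68 without it.

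The promoters of members that moved were read for the letters that C/EBP factors bind. RefSeq windows of GRCm38.p6, from 250 bases before to 50 after a start, were given for 149 of the 196 members, 36 of which had several windows. The motif TTGCNNAA, 1 C/EBP half-site (TTGC) and only the outer AA of a second, was searched on both strands. It occurred in a window of 13 of those 149 members (8.72%), beside 12.2% of all 27025 genes with a window. It occurred in 3 of 14 members called higher in both clones that had a window and in 1 of 19 called lower in both. TGATGNAA, a composite of a C/EBP and an ATF half-site, occurred in 6 of the 149 members (4.03%) and in 4.51% of all genes, in 2 of the 14 called higher in both clones and in 1 of the 19 called lower in both. The windows show the motifs in capitals, as they read on the strand of the gene, in a gene that rose in both clones with 2 matches of TTGCNNAA (Slc24a3), a gene that rose with TGATGNAA (Slc9a9), a gene that fell in both with TTGCNNAA (Slc7a7) and the cystine carrier Slc7a11, whose window held 2 matches of each motif. The Slc24a3 window is chr2:145242361-145242660 on the plus strand, that of Slc9a9 is chr9:94669642-94669941 on the plus strand, that of Slc7a7 is chr14:54410154-54410453 on the minus strand and that of Slc7a11 is chr3:50443564-50443863 on the minus strand. All are printed 5′ to 3′ in the direction of the gene, and the start lies after base 250.
Slc24a3: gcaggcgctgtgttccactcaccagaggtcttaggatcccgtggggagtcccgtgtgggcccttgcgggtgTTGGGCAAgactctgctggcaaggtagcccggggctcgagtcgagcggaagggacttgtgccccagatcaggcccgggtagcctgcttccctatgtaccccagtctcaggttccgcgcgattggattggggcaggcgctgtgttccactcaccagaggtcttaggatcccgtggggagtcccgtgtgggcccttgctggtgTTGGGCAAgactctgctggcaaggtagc
Slc9a9: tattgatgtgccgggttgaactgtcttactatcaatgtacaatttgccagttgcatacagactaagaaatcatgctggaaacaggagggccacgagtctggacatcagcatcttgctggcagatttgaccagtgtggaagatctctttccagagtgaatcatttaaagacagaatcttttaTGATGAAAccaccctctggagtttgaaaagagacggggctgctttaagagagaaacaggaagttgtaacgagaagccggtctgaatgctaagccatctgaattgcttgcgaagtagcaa
Slc7a7: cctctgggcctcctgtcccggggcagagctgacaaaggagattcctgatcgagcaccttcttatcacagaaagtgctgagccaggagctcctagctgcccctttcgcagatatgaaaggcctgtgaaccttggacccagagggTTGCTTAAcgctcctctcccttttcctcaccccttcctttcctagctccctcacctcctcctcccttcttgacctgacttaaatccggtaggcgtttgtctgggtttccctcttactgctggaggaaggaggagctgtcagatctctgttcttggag
Slc7a11: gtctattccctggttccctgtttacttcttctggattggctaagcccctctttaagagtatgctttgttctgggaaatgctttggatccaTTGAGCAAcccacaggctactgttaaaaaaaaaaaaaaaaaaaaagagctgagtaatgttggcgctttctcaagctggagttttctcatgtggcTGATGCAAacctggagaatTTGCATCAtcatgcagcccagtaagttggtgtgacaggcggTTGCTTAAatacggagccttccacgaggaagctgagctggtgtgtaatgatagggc
In Slc24a3 the matches began at bases 72 and 273 of the window, the second after the start. This window is 1 of 2 for Slc24a3 and lies within the gene, and the other held no match. In Slc9a9 the match began at base 182, and in Slc7a7, which has 5 windows in the table, at base 144. Others of these Slc7a7 windows held TGATGNAA. In Slc7a11 the matches of TTGCNNAA began at bases 91 and 245 and those of TGATGNAA at bases 185 and 204, the latter reading TTGCATCA on the strand of the gene. A match says only that these letters stand in the window.

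The third question was which of these genes differed when C/EBPβ LAP* was put back into dKO cells of clone C1. This comparison shares its dKO libraries with the comparison of dKO and WTFL cells, so the values are given side by side. With LAP*, 7 members were called higher and 9 lower than in dKO cells, together 8.16%, beside 1.43% and 3.03% of all tested genes, together 4.46%. The dKO-LAP* and dKO libraries did not overlap for 58 members (29.6%, beside 24.1% of all tested genes). The median log2 fold change was -0.04, beside 0 over all tested genes. The lower genes were Slc45a3, Slc22a3, Slc24a3, Slc12a5, Slc40a1, Slc31a2, Slc27a4, Slc22a15 and Slc9a3r1, and the higher genes were Slc38a2, Slc38a1, Slc35g1, Slc25a13, Slc12a7, Slc7a2 and Slc36a4. The eosinophil and the mast cell and basophil marker sums fell in dKO-LAP* cells beside these genes. The late neutrophil sum was lower too, at 22766 to 26218 beside 50495 to 67664 in dKO cells, and the macrophage sum, at 2737 to 3235, lay within the range of dKO cells. The erythroid sum went from 22.9 to 38.5 down to 10.0 to 15.2. The part of these shifts was not tested.

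Slc22a3, Slc45a3 and Slc12a5, which were low or at 0 in WTFL cells of clone C1, were called lower with LAP*. Slc22a3 had 19.3, 10.1 and 11.9 normalized reads in the dKO-LAP* libraries, beside 42.8 ± 7.51 in dKO cells and 0 in WTFL cells, a log2 fold change against dKO cells of -1.61 (SE 0.30, limma adjusted p = 0.0064). Slc45a3 had 3.05, 0 and 0.91 and was back at the floor, at least 5.20-fold lower than in dKO cells (limma adjusted p = 0.0019), a call that was lost when only the groups compared were fitted (0.054). Slc12a5 had 67.0, 76.5 and 64.8, beside 181 ± 17.9 in dKO and 12.5 ± 3.66 in WTFL cells, and fell by 1.37 on the log2 scale (limma adjusted p = 0.0047). None of these dKO-LAP* groups overlapped the dKO group, and the mean of Slc22a3 and of Slc12a5 stayed above that of WTFL cells.

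Slc40a1 had 388, 481 and 476 in dKO-LAP* cells, within the range of the WTFL libraries at 296, 459 and 493, and differed from dKO cells by -1.12 (SE 0.19, limma adjusted p = 0.0034). Slc24a3 had 10.2, 7.37 and 10.9, a change of -1.42 (SE 0.36, limma adjusted p = 0.038) that was lost without dKO replicate 1 or 3, any dKO-LAP* replicate, or replicate 3 of WTFL or dKO cells of clone C2 (limma adjusted p = 0.053 to 0.13) and under 4 of 8 alternative settings (0.083 to 0.28). Slc22a15 had 369, 401 and 389, between 514 ± 28.8 in dKO and 262 ± 17.1 in WTFL cells (-0.41, SE 0.10, limma adjusted p = 0.037), and lost the call without any 1 of the 6 dKO and dKO-LAP* libraries of clone C1 (limma adjusted p = 0.063 to 0.12) or without the filter on low values (0.051). The groups of Slc40a1, Slc24a3 and Slc22a15 did not overlap.

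Slc31a2, Slc27a4 and Slc9a3r1 were called lower by smaller steps, from 438 ± 71.6, 582 ± 9.58 and 1111 ± 51.0 in dKO to 275 ± 55.8, 399.5 ± 65.0 and 897 ± 8.11 in dKO-LAP* cells (limma adjusted p = 0.033, 0.047 and 0.025). Slc31a2 lay farther from WTFL cells, at 760.4 ± 105, with LAP* than without it. Each of these calls was lost without single libraries, at adjusted p = 0.058 to 0.14 for Slc31a2 (dKO replicates 1 and 3, dKO-LAP* replicates 2 and 3), 0.056 to 0.18 for Slc27a4 (WTFL replicate 1, all dKO replicates and dKO-LAP* replicates 2 and 3 of clone C1, WTFL replicate 3 and dKO replicates 1 and 3 of clone C2) and 0.051 to 0.092 for Slc9a3r1 (dKO replicates 2 and 3 and all dKO-LAP* replicates). Slc31a2 also lost it under 2 of 8 alternative settings (adjusted p = 0.14 and 0.073), Slc27a4 under 4 (0.056 to 0.092) and Slc9a3r1 under 1 (0.069).

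**Figure D5:**
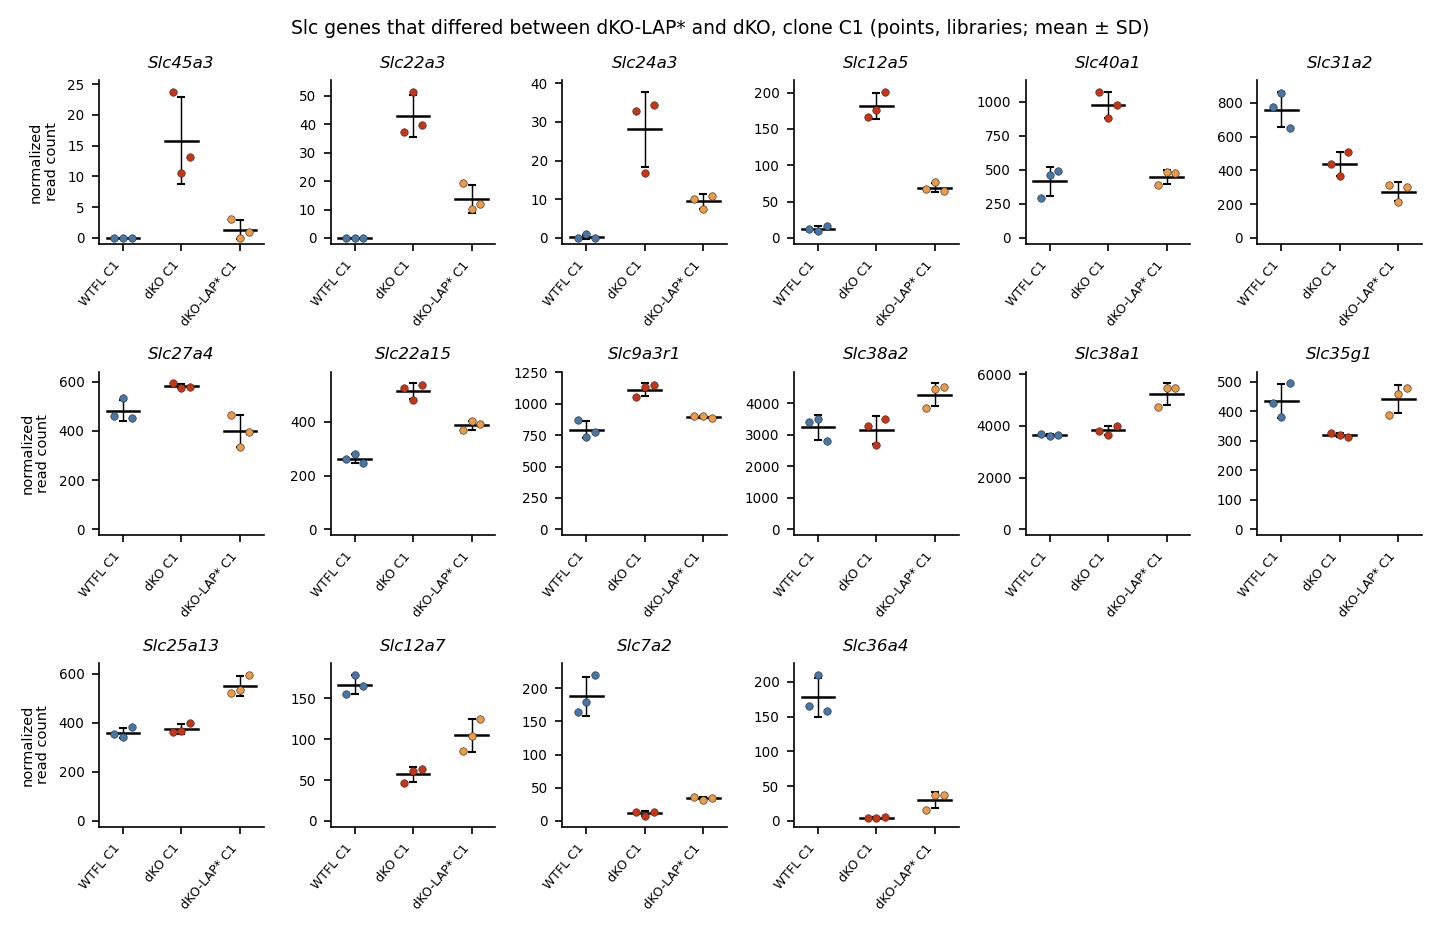
Normalized reads (y axis) of the 16 Slc genes called between dKO-LAP* and dKO cells of clone C1, in the 3 libraries of the WTFL, dKO and dKO-LAP* groups (x axis), ordered from the largest fall to the largest rise with LAP*. Points are libraries and lines and bars are means ± SD, and Slc22a3, Slc12a5, Slc7a2 and Slc36a4 lie between the other groups with LAP*, whereas Slc38a1 and Slc25a13 lie above both.

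Of the genes that rose with LAP*, some had fallen in dKO cells. Slc36a4 had 16.2, 36.9 and 37.4 normalized reads in dKO-LAP* libraries, beside 4.97 ± 1.06 in dKO and 178 ± 28.4 in WTFL cells, 6.07-fold above dKO cells (log2 fold change 2.31, SE 0.24, limma adjusted p = 5.2e-05). Slc7a2 had 36.6, 32.3 and 34.6, beside 11.4 ± 3.51 and 187 ± 29.4, with a log2 fold change of 1.56 (SE 0.24, limma adjusted p = 0.0015). Both stayed well below the WTFL libraries. Slc12a7 had 85.3, 103 and 125, beside 56.9 ± 9.20 and 166 ± 11.7 (0.86, SE 0.18, limma adjusted p = 0.011), and lost the call without dKO replicate 1 or dKO-LAP* replicate 3 (limma adjusted p = 0.054 and 0.065) or when only the groups compared were fitted (0.093). Slc35g1, of the nucleotide sugar transporter superfamily, had 388, 457 and 481, beside 319.6 ± 7.42 and 434 ± 57.7 (0.46, SE 0.10, limma adjusted p = 0.015), and lost the call without dKO replicate 2 or 3 or dKO-LAP* replicate 2 or 3 (limma adjusted p = 0.052 to 0.087) or with only the groups compared (0.068).

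Others rose above the WTFL level. The neutral amino acid carriers Slc38a1 (SNAT1, on chromosome 15 from 96571418 to 96642913) and Slc38a2 (SNAT2, on chromosome 15 from 96687392 to 96699730) are neighbours on 1 strand, 44478 bases apart. Slc38a1 had 3690.2, 3619 and 3647 in WTFL, 3821, 3668 and 4004 in dKO and 4742, 5462 and 5487 in dKO-LAP* libraries, 0.45 (SE 0.07, limma adjusted p = 0.0015) against dKO cells. Slc38a2 had 3401, 3501 and 2789.9 in WTFL, 3282, 2663 and 3504 in dKO and 3857, 4453 and 4497 in dKO-LAP* libraries (0.44, SE 0.11, limma adjusted p = 0.032), and lost the call without dKO replicate 1 or 2 or dKO-LAP* replicate 2 or 3 (limma adjusted p = 0.058, 0.16, 0.11 and 0.14) and under 2 of 8 alternative settings (0.12 and 0.092). Slc25a13, the aspartate and glutamate carrier citrin, had 353, 342 and 382 in WTFL, 361, 365 and 399.8 in dKO and 521, 532 and 596 in dKO-LAP* libraries (0.55, SE 0.08, limma adjusted p = 0.00064). For these 3 genes every dKO-LAP* library was above every dKO and WTFL library of clone C1, and none of them was called between dKO and WTFL cells of that clone, apart from Slc38a1 under quantile normalization (limma adjusted p = 0.040).

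Several genes with large changes in dKO cells were not called with LAP* at the settings used throughout. Slc2a3 had 309.8, 359.5 and 264 in dKO-LAP* libraries, below all dKO libraries at 592, 645 and 656, a change of -1.03 (SE 0.30, limma adjusted p = 0.062). It was called without WTFL replicate 2 or 3 of clone C1 or dKO replicate 2 of clone C2 (limma adjusted p = 0.046, 0.029 and 0.029) and under 5 of 8 alternative settings, namely a pseudocount of 5, quantile normalization, only the groups compared, edgeR and DESeq2 (adjusted p = 0.0499, 0.044, 0.018, 0.033 and 0.0036). Slc39a4, Slc11a1, Slc15a3 and Slc27a1 had 10.8 ± 1.22, 24.6 ± 11.2, 26.9 ± 8.01 and 29.2 ± 4.35 in dKO-LAP* cells, beside 17.8 ± 6.58, 29.9 ± 17.8, 30.6 ± 16.0 and 36.7 ± 5.56 in dKO cells (limma adjusted p = 0.31, 0.89, 0.95 and 0.48), and each mean was below the dKO mean. Slc44a4, with 31.2 ± 13.7 beside 12.1 ± 3.38 in dKO cells (1.22, SE 0.38, limma adjusted p = 0.084), was called when dKO-LAP* replicate 3 was left out (limma adjusted p = 0.026), with quantile normalization (0.044) and in DESeq2 (0.028). Slc32a1, with 28.3 ± 3.56 beside 52.6 ± 3.60 (-0.88, SE 0.27, limma adjusted p = 0.087), was called when WTFL replicate 2 of clone C2 was left out (limma adjusted p = 0.023), with only the groups compared (0.048) and in DESeq2 (0.030). Slc6a8 was listed at 0 in both groups. Slc13a3 had 99.5, 96.8 and 139, above all dKO libraries, and was not called either (0.75, SE 0.43, limma adjusted p = 0.39). Slc28a2, with 60.9 ± 7.48 beside 45.5 ± 15.6 in dKO cells, and Slc25a23, with 47.0 ± 5.49 beside 37.0 ± 4.61, which had risen from low WTFL levels, had changes of 0.46 and 0.34 that were not called (limma adjusted p = 0.6 and 0.69).

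At the edge of the level limit, Slc26a8 and Slc4a8 were the lowest members, which reached 14.7 and 15.7 normalized reads or more in 3 libraries, and Slc36a3os and Slc26a9 lay just outside it, with 9.17 and 9.06. Slc26a8, an anion exchanger known from sperm, had means of 4.32 ± 2.52 in WTFL against 10.5 ± 3.13 in dKO cells of clone C1 and 11.9 ± 6.38 and 14.7 ± 0.81 in clone C2. Slc4a8, a sodium-driven bicarbonate exchanger, had 16.2 ± 3.66 and 11.4 ± 1.10, then 4.27 ± 3.22 and 1.65 ± 2.01.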

How the data were processed

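RNA-seq was performed on 15 libraries in 5 groups of 3, grouped by GEO's labels. The deposited values are a signal: read counts per gene that the authors divided by 1 size factor per library. The submitters' processing notes name STAR 2.5.3a, HTSeq 0.10.0, DESeq2 1.26.0 and mm10. The strand setting of the counting is not given in the sources used here, although the library kit was stranded. The table held 3 further columns that matched no sample and were not used, and 5 rows that name no gene, which took 22.4% to 26.2% of reads and were left out. Low values were whole multiples of 1 step per library, so reads were recovered (100% of values within 0.1 of a whole read), and depth was 9212237 to 13613500 reads on genes.

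Values were tested as log2(value + 1) with limma 3.58.1 in R 4.3.3, in 1 fit over all 5 groups and all 12673 genes with at least 10 in at least 3 libraries, with Benjamini-Hochberg adjustment. A fold on this scale understates the change of low genes. A group with no library above 3 reads was taken as at the floor, where a fold is given as a lower bound and a fitted log2 value depends on the pseudocount. The floor covers counting error only. Alternatives were pseudocounts of 0.1 and 5, no filter, quantile normalization, only the groups compared, a replicate block, a fold limit, edgeR 4.0.16 and DESeq2 1.42.0 on the recovered reads, and leaving out each library. The script was tested on simulated data.

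Members, solute groups and marker lists were chosen with earlier results of these data known. Genes were named by rule: a fixed list of 14 well studied genes, the 6 largest rises and 6 largest falls shared by both clones without overlap, the 6 largest of the opposite changes, the 6 largest changes with LAP*, the 5 highest levels per kilobase and the genes beside the level limit. All other named members were chosen after their values were seen. Positions are from GENCODE vM21 (mm10), which placed all 196 members, and promoter windows are from RefSeq (GRCm38.p6). Tables were handled with Python 3.11.15 and pandas 2.3.3.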

Additional observations from a re-analysis of the deposited data

Results flagged for a closer look

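For 42 of the named members the effect of the deletion differed between the clones by limma's interaction test (the log2 fold change in clone C2 minus that in clone C1, adjusted p = 1.7e-08 to 0.024). Slc1a3, which passed the level limit through its high group alone, is left out of this count although its fit passes the threshold. Over all 196 members the effects differed for 69 (35.2%), beside 29.4% of all tested genes. The named members were in part chosen for opposite changes or after their values were seen, so the 42 give no share for the members. For Slc8a1, Slc22a3, Slc24a3, Slc13a3, Slc7a2, Slc39a4, Slc6a8 and Slc7a4 at least 1 of the groups was at the floor, so the fitted values below depend on the pseudocount and are neither exact sizes nor bounds. No explanation was tested for any of them.

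Among ion transporters, the difference was 6.50 for Slc8a1, -2.70 for Slc12a5, -2.65 for Slc24a3 and 1.66 for Slc9a9. For metal and haem transporters it was 2.48 for Slc39a4, 1.21 for Slc31a2, 0.81 for Slc30a7, 0.76 for Slc39a10, 0.73 for Slc39a6, -0.34 for Slc48a1 and -0.99 for Slc40a1. Slc48a1 lost the call without dKO replicate 1 of clone C1 or WTFL replicate 1 of clone C2 (limma adjusted p = 0.052 and 0.053). The difference of Slc39a4, whose dKO libraries of clone C2 were at the floor, was lost with a pseudocount of 0.1, in edgeR and in DESeq2 (adjusted p = 0.49, 0.43 and 0.38), and that of Slc24a3 with a pseudocount of 5 (0.071).

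For amino acid transporters it was 4.45 for Slc36a4, 1.82 for Slc6a12, 1.47 for Slc6a8, 1.13 for Slc7a8, 0.55 for Slc7a6, -1.36 for Slc7a2, -2.07 for Slc7a7, -2.08 for Slc7a4 and -4.66 for Slc43a1. Slc6a8 lost it without WTFL replicate 3 of clone C1 or WTFL replicate 1 or 3 or dKO replicate 3 of clone C2 (limma adjusted p = 0.052 to 0.070), and with a pseudocount of 5 or no filter on low values (0.65 and 0.092). Slc7a2 lost it with a pseudocount of 5 or quantile normalization (0.31 and 0.11), and Slc7a4 with a pseudocount of 0.1, in edgeR and in DESeq2 (0.082, 0.073 and 0.11). The vesicular and lysosomal genes Slc32a1 and Slc15a3 had 4.42 and 4.30.

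For sugar transporters the difference was 1.12 for Slc37a2, -1.06 for Slc2a9 and -1.39 for Slc2a3, which lost the call without WTFL replicate 3 of clone C2 (limma adjusted p = 0.058). In the carboxylate families it was 2.40 for Slc16a7, 0.65 for Slc16a1, 0.53 for Slc16a10 and -2.28 for Slc13a3. The last was lost with a pseudocount of 0.1, quantile normalization, edgeR or DESeq2 (adjusted p = 0.44, 0.057, 0.22 and 0.20). Slc16a10 lost it without dKO replicate 2 of clone C1 or WTFL replicate 2 of clone C2 (limma adjusted p = 0.052 and 0.053).

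Nucleoside and vitamin transporters had 0.81 (Slc52a2), 0.60 (Slc19a2), 0.55 (Slc29a1) and -4.53 (Slc28a2). Slc19a2 lost the call when WTFL replicate 1 or dKO replicate 3 of clone C1, or WTFL replicate 3 or dKO replicate 2 or 3 of clone C2 was left out (limma adjusted p = 0.052 to 0.065). The lipid genes Slc27a1 and Slc27a4 had 1.71 and -0.96, and the organic cation transporter Slc22a3 had 1.91, which turned under other settings. The mitochondrial carriers Slc25a3, Slc25a13, Slc25a47 and Slc25a29 had 0.41, 0.38, -1.85 and -2.22 (quantile normalization ended the call of the first pair, at adjusted p = 0.16 and 0.059), and the scaffold genes Slc9a3r1 and Slc9a3r2 had -0.44 and -4.22.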

How the results depend on the processing

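Of the 98 members called in clone C1, 73 kept their call under all 8 alternative settings and 71 with each of 15 libraries left out in turn. In clone C2 these were 69 and 63 of 89, for the difference between clones 49 and 54 of 69, and for LAP* 7 and 8 of 16, and no called member was called in the reverse direction. A required absolute log2 fold change of at least 1 left 18 higher and 21 lower members in clone C1, 16 and 18 in clone C2, 16 and 17 for the difference and 2 and 5 with LAP*. The share of all tested genes at this fold limit was not counted. With LAP*, only the groups compared gave 4 higher members, and DESeq2 gave 11 higher and 14 lower. Leaving out 1 library gave 32 to 41 higher and 51 to 61 lower members in clone C1, 30 to 38 and 42 to 55 in clone C2, 35 to 48 and 24 to 30 for the difference, and 5 to 9 and 4 to 10 with LAP*. The lowest count of 4 with LAP* came without dKO replicate 3 or dKO-LAP* replicate 2 or 3. The clone difference of Slc22a3 turned to -1.15 with a pseudocount of 0.1, -0.93 in edgeR and -0.26 in DESeq2 (adjusted p = 0.115, 0.428 and 0.919), and that of Slc6a8 to -0.23 with a pseudocount of 5 (limma adjusted p = 0.647). The WTFL libraries of Slc22a3 and the dKO libraries of Slc6a8 in clone C1 were at 0, and the cause was not tested.

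Same-numbered libraries did not deviate together (correlations of 0.13, 0.08 and -0.02 in clone C1, -0.17, -0.17 and 0.06 in clone C2), so the numbers were not taken as pairs. The replicate block gave 37 higher and 61 lower members in clone C1, 37 and 53 in clone C2, 38 and 25 for the difference, and 7 and 5 with LAP*.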

Other observations

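Transport genes outside the Slc symbols were counted as well, and the genes named here were chosen after their values were seen. Of all tested genes, 17.1% were called higher and 19.9% lower in clone C1 and 17.4% and 20.1% in clone C2. Of 28 genes of the ABC transporter family tested, 6 rose and 9 fell in clone C1 and 6 rose and 10 fell in clone C2. The cholesterol exporter Abca1 had 177 ± 116 normalized reads in WTFL against 12.2 ± 3.95 in dKO cells of clone C1 (SD, n = 3), and Abcg1, of the same route, had 645 ± 199 and 180.4 ± 61.8, with 240.0 ± 52.9 and 104 ± 22.5 in clone C2. The changes of Abcg1 were -1.84 and -1.21 in log2 units (limma adjusted p = 5.9e-05 and 0.0023).

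Of 3 organic anion transporters of the Slco family tested, 2 rose in each clone. Slco3a1 had 114 ± 26.6 in WTFL against 278 ± 7.64 in dKO cells of clone C1, and 2.94 ± 0.95 and 93.3 ± 8.66 in clone C2. Slco4c1 had 32.4 ± 13.3 and 313 ± 60.3, then 7.96 ± 4.33 and 40.9 ± 20.2.

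Of 20 genes of solute transport with other symbols, which include a receptor (Tfrc) and a reductase (Steap3), 3 rose and 7 fell in clone C1 and 7 rose and 4 fell in clone C2. Flvcr2, a relative of a haem exporter, had 137 ± 25.7 in WTFL cells of clone C1 and 20.1 ± 7.79 in those of clone C2 and was listed at 0 in all 6 dKO libraries. Mpc2, a subunit of the mitochondrial pyruvate carrier, fell from 1422 ± 282 to 460.0 ± 57.7 in clone C1 (limma adjusted p = 7.1e-08) and had 903 ± 76.4 and 838 ± 88.7 in clone C2 (limma adjusted p = 0.52).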
